A study of Mus musculus with 50 samples.

Results

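The genes described here mark neurons that use a transmitter other than acetylcholine, and they were followed in mouse spinal motor neurons from the embryo to old age and in motor neurons made from stem cells. They were chosen by symbol, as 9 of the 55385 genes in the deposited expression files, and were set against *Chat* (ENSMUSG00000021919.8, chr14:32408203-32465989, minus strand), the enzyme that makes acetylcholine and the gene whose Cre line tagged the nuclei. RNA was measured in 28 libraries and open chromatin in 22. The E10.5 libraries, 3 for RNA and 2 for ATAC-seq, came from sorted whole cells of C57BL/6- HB9-GFP embryos with high GFP. All later in vivo libraries came from nuclei of C57BL/6- Chat-Cre;SUN1-GFP-3xMYC mice without treatment, with 2 RNA libraries at E13.5, 3 at P4, 2 at P13, 3 at P21, 3 at P56 and 2 at 2 years. The cultured libraries came from nuclei of stem cell-derived motor neurons with the same Chat-Cre;SUN1-GFP-3xMYC alleles, with 2 RNA libraries at DIV0 (days in vitro), 2 at DIV7, 3 at DIV28 and 3 at DIV28 with 1 uM TTX, a blocker of voltage-gated sodium channels that was present throughout the 28 days. ATAC-seq had 2 libraries for each of these 11 groups. Per the study's methods, spinal nuclei for RNA came from brachial and lumbar cord and were purified on beads. Those for ATAC-seq came from brachial, thoracic and lumbar cord and were sorted by GFP. Cultured nuclei were likewise purified on beads for RNA and sorted for ATAC-seq. The 2 readouts thus differ in purification, and in vivo after E10.5 also in cord region. Each in vivo library pooled several animals, and the cultured neurons came from stem cells of blastocysts with these alleles and grew on cortical astrocytes of P2 mice after DIV0. A nucleus is tagged once Chat-Cre has been active in the cell or an ancestor of it. Cholinergic interneurons and visceral motor neurons are therefore tagged too. The paper cites a single-nucleus study in which Chat-Cre also labelled a sizeable number of GABAergic and glutamatergic neurons of the adult cord. Its own deconvolution of the P56 RNA libraries found no significant share of non-cholinergic cells. The paper also plots neurotransmitter pathway genes in its bulk libraries and in single skeletal motor neurons. For the nuclei used for RNA, its methods give a lower GFP+ share at E13.5 and P4 than from P13 on. They name some blood vessel contamination at those 2 younger ages. The change from whole cells to nuclei falls together with the change from E10.5 to E13.5.

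A neuron's transmitter is set by the enzymes that make it and the transporters that load or recover it. *Gad1* and *Gad2* make GABA from glutamate, and *Slc32a1* loads GABA and glycine into vesicles. *Slc6a5* takes glycine up into glycinergic terminals, while *Slc6a9* clears glycine from the synapse, largely through glia. *Slc17a6*, *Slc17a7* and *Slc17a8* load glutamate into vesicles, and *Th* is the rate-limiting enzyme of dopamine and noradrenaline synthesis. In the spinal cord, GABA and glycine are the transmitters of inhibitory interneurons and glutamate that of excitatory ones, and motor neurons release acetylcholine at the muscle.

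Library totals ranged from 2704642 to 21823492 expected counts. Of 8 motor neuron markers, all were detected in every in vivo library and at DIV0 and DIV7, while *Chodl*, a marker of fast motor neurons, had no count at DIV28 with or without TTX. The library titled DIV0 replicate 3 was counted as DIV28 replicate 3, and leaving it out changed no call of the 9 genes in any comparison that uses DIV28. Summed normalised counts of 5 endothelial markers were 12231 to 23149 at E13.5 and 5339.7 to 7248 at P4, against 35.0 to 70.3 at P21, and those of 6 erythroid markers were 16284 to 18083 at E13.5. Those of 7 oligodendrocyte markers were 241 to 253 at E13.5 and 2051 to 2678 at P4. They reached 11417 to 11484 at P13 and 6336 to 8556 at P21. The 8 motor neuron markers summed to 4128 to 4521 at P13 and 3742 to 4542 at P21. For 8 astrocyte markers the sums were 1151 to 1308 at E13.5, 3190 to 3993 at P4 and 1530 to 2051 at P21. The part of glial RNA in the in vivo results was not tested. In bulk libraries, fewer cells of a type and less RNA per cell cannot be told apart.

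Levels are given as normalised counts, scaled by median-of-ratios factors, for 1 gene across libraries, and as TPM relative to *Chat* TPM in the same library where genes are compared with each other. A call in edgeR's quasi-likelihood test needed both of the study's limits, p below 0.001 before adjustment and a 2-fold change, and adjusted p-values are over all genes tested. Relative to *Chat*, none of the 9 genes stood above it in any nuclear library of the spinal cord. The highest group mean among the nuclear in vivo libraries was that of *Slc17a6* at P4, 50.7% ± 6.32 (SD, n = 3) of *Chat* TPM, and at P56 the leading gene was *Gad1* at 31.3% ± 5.61 (SD, n = 3). In whole cells at E10.5, *Th* stood at 282%, 165% and 259% of *Chat* TPM, above *Chat* in each of the 3 libraries. In culture, *Gad1* was the gene nearest to *Chat*, at 79.0%, 81.7% and 64.5% at DIV28. Among the other genes of inhibitory neurons, *Slc32a1* stood at 6.73% ± 3.51 (SD, n = 3) and *Slc6a5* at 15.7% ± 2.96 (SD, n = 3) of *Chat* TPM at P56.

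**Figure D1:**
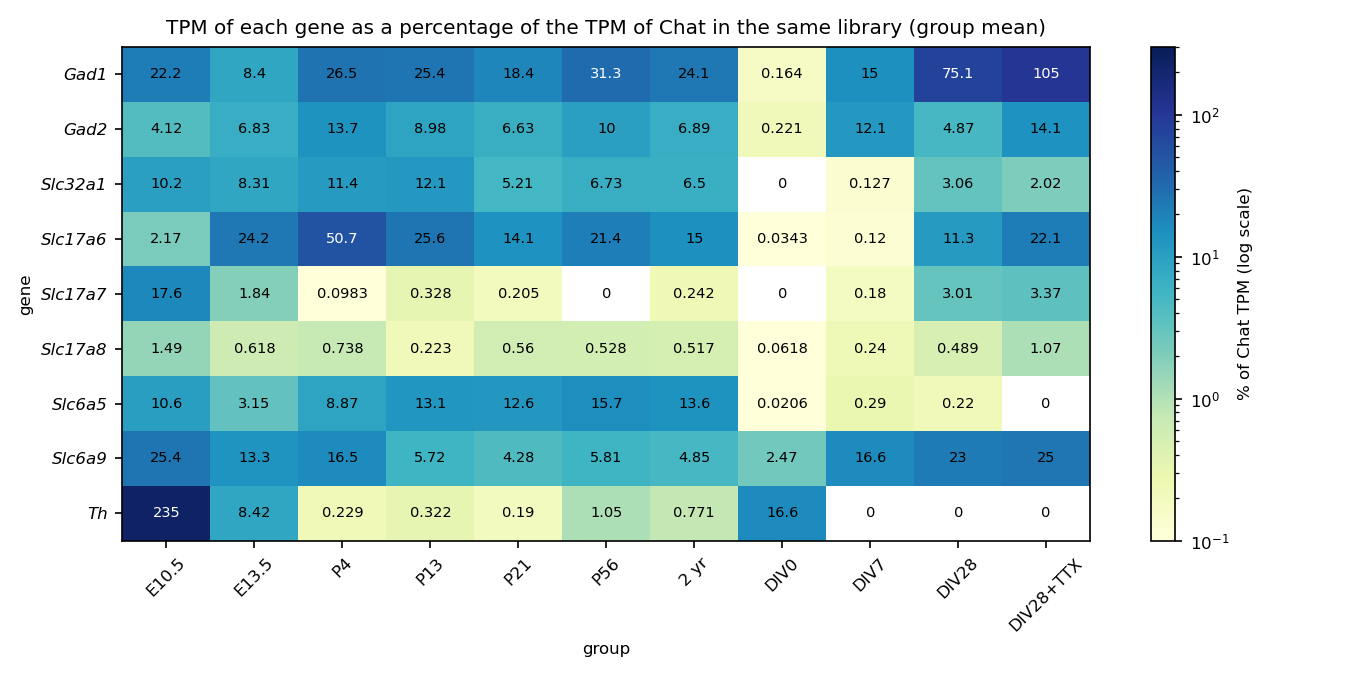
Group means of the TPM of each gene (rows) as a percentage of the TPM of *Chat* in the same library, for the 11 groups of RNA libraries (columns), with the colour on a log scale and white for a mean of 0. *Th* at E10.5 (235%) and *Gad1* at DIV28 with TTX (105%) are the means above *Chat*.

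*Gad1* (ENSMUSG00000070880.10, chr2:70553072-70602014, plus strand), the enzyme behind most GABA in cell bodies, rose between E13.5 and P4 in vivo and from DIV0 to DIV28 in culture. Normalised counts were 26.7, 6.22 and 27.5 in the E10.5 libraries, 20.3 and 15.0 at E13.5 and 107, 149.5 and 109 at P4. They were 193 and 171 at P13, 76.9, 176 and 181 at P21, 191, 218 and 263 at P56 and 173 and 233 at 2 years. Every library from P4 on lay above every embryonic one, with P21 replicate 1 the lowest of the postnatal ones. The P13 libraries lay above those of P4 and the P56 libraries above those of P21, without overlap, while P13 and P21, and P56 and 2 years, overlapped. The rise from E13.5 to P4 was 7.83-fold (log2 fold change 2.97, standard error 0.46, adjusted p = 1.9e-05) and that from E13.5 to P56 14.4-fold (log2 fold change 3.85, standard error 0.46, adjusted p = 6.3e-07), and no step between P4 and 2 years passed the limits. Relative to *Chat* TPM in the same library, *Gad1* was at 6.13% and 10.7% at E13.5 and 19.4%, 36.8% and 23.2% at P4, which did not overlap. Over the same interval the summed counts of 12 inhibitory interneuron markers were between 634 and 698 at E13.5 and between 239.6 and 488 at P4, and the endothelial sum was lower at P4 as given above. Of the 12 markers, 9 had a lower mean at P4, while *Pax2* had a mean of 32.4 at E13.5 and 64.3 at P4, *Pax8* 34.3 and 46.2, and *Sall3* 83.3 and 111. Their part in the result was not tested.

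In culture, *Gad1* had 3.92 and 1.53 normalised counts at DIV0, 105 and 49.8 at DIV7, 461, 400.2 and 287 at DIV28 and 322, 167 and 204 with TTX. The DIV0, DIV7 and DIV28 libraries did not overlap, each group lying above the one before, while the TTX libraries reached into the DIV28 range. *Gad1* rose 26.3-fold from DIV0 to DIV7 (log2 fold change 4.72, standard error 0.67, adjusted p = 0.00048) and 5.09-fold from DIV7 to DIV28 (log2 fold change 2.35, standard error 0.42, adjusted p = 0.0036), in comparisons that share the DIV7 libraries. The second step rested on DIV7 replicate 2, without which it was 1.88 and no longer passed. At DIV28 the 12 inhibitory interneuron markers summed to 99.2 to 152, against 215 to 272 at P21. Within the list, *Gbx1*, *Pax8* and *Ptf1a* were at 0 at DIV28 and *Pax2* was at 0 to 2.92, against 56.2 to 89.5 at P21. Other members were higher at DIV28 than at P21, with *En1* at 47.4 to 76.5 against 0 to 4.22, *Gata2* at 16.8 to 40.6 against 1.41 to 2.80 and *Tal1* at a mean of 17.7 against 3.70. The part of other cells in the level of *Gad1* was not tested.

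*Gad2* (ENSMUSG00000026787.3, chr2:22622205-22693874, plus strand), the GABA-making enzyme of nerve terminals, had 35.1 and 26.2 normalised counts at E13.5, 137, 187 and 96.1 at P4 and 139, 162 and 153 at P56. The P4 and P56 libraries lay above both E13.5 libraries, and *Gad2* rose 5.17-fold from E13.5 to P4 (log2 fold change 2.37, standard error 0.41, adjusted p = 7.4e-05), which did not pass without E13.5 replicate 2 (2.15). Relative to *Chat* TPM, *Gad2* was at 5.06% and 8.59% at E13.5, 16.5%, 15.4% and 9.10% at P4 and 9.60%, 10.4% and 10.2% at P56. At P21 it was at 5.67%, 6.39% and 7.84%, within the E13.5 range. At E10.5 the counts were 10.7, 1.38 and 16.0, and at P13, P21 and 2 years they ranged from 76.9 to 149, where P21 lay below P13 and P56 and 2 years below P56, without overlap, and no step between these ages was called. In culture it had 3.92 and 15.3 at DIV0, 114 and 77.8 at DIV7, 82.3, 38.1 and 33.5 at DIV28 and 124, 45.1 and 37.9 with TTX, so that its highest untreated group was DIV7 where that of *Gad1* was DIV28. No culture comparison of *Gad2* passed the limits, the nearest being DIV0 to DIV7 (log2 fold change 3.34, standard error 0.81, adjusted p = 0.011).

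*Slc32a1* (ENSMUSG00000037771.11, chr2:158610767-158615748, plus strand) had 24.0 and 12.9 normalised counts at E13.5, 62.8, 77.5 and 41.2 at P4, 88.6 and 95.6 at P13 and 44.8, 60.5 and 34.5 at P21. Both P13 libraries lay above all others of the series, and no in vivo comparison passed the limits (E13.5 to P4, log2 fold change 1.93, standard error 0.57, adjusted p = 0.0064). At E10.5 the counts were 10.7, 3.46 and 32.8, overlapping those of E13.5, and at P56 and 2 years they were 26.1, 50.9 and 71.3 and 49.7 and 60.9, overlapping those of P4 and P21. Relative to *Chat* TPM, *Slc32a1* was at 7.50% and 9.11% at E13.5, 12.2%, 13.6% and 8.32% at P4 and 3.12%, 6.94% and 10.1% at P56. Both later groups overlapped E13.5. In culture the vesicular transporter had no count at DIV0, 0 and 1.28 at DIV7, 19.7, 17.1 and 7.29 at DIV28 and 3.87, 5.43 and 2.52 with TTX. The TTX libraries lay below the DIV28 ones, without overlap, but *Slc32a1* was under the CPM limit in culture and was not tested there. At DIV28, *Slc32a1* stood at 3.44%, 4.03% and 1.72% of *Chat* TPM beside 79.0%, 81.7% and 64.5% for *Gad1*, and at P21 at 4.60%, 7.28% and 3.75% beside 9.86%, 23.9% and 21.6%.

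The 250 bases before the RefSeq start of *Gad1* (chr2:70561879-70562128, GRCm38.p6, plus strand) and of *Slc32a1* (chr2:158610508-158610757, plus strand) are shown because their peaks differed in later culture. In vivo, peaks in both stretches were first found at P4, while at DIV7 and DIV28 only the *Gad1* stretch had them. Capitals mark a TATA box motif and a GC box motif in *Gad1*, both read on the other strand. None of the 4 motifs searched is in the *Slc32a1* stretch.
Gad1: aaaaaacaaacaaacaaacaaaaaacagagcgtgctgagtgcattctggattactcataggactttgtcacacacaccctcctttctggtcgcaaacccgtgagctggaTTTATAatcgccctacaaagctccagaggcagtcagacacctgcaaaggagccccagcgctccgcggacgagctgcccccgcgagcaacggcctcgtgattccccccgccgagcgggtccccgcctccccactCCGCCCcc
Slc32a1: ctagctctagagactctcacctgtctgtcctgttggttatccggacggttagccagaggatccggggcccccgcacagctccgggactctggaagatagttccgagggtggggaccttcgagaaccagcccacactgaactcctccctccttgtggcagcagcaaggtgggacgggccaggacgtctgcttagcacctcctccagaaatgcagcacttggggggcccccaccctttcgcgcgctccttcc

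The motifs searched on both strands were those of the full cyclic AMP response element (TGACGTCA), held by 1.55% of 32851 promoter stretches of the same length, the GC box core (GGGCGG), held by 32.7%, the TATA box core (TATAAA), held by 12.4%, and a homeodomain core (TAATTA), held by 4.84%. In the *Gad1* stretch the TATA box motif lay 135 bases and the GC box motif 2 bases before the start, and a match is a description of the letters, not a site. No ATAC peak overlapped this stretch at E10.5 or E13.5, while 1 of 2 libraries at P56 and both libraries of each other later group had one. The *Slc32a1* stretch had a peak in both libraries at P4, P13, P21, P56 and 2 years, in 1 at DIV0 and in none at E10.5, E13.5, DIV7 or DIV28, with or without TTX. This timing holds for the printed stretches only. Within 1000 bp of an annotated start, both E13.5 libraries had a peak at *Gad1* (7.38 and 10.4) and at *Slc32a1* (3.84 and 9.81). At E10.5 such a peak was present in both libraries for *Gad1* and in 1 for *Slc32a1*.

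*Slc6a5* (ENSMUSG00000039728.15, chr7:49910146-49963856, plus strand), the glycine transporter of glycinergic neurons, rose in vivo from E13.5 to P4 and from P4 to P13 and was near 0 in culture. Normalised counts were 46.6, 13.1 and 41.2 at E10.5, 19.4 and 12.9 at E13.5, 130.1, 123 and 72.4 at P4 and 300.1 and 214 at P13. They were 235, 315 and 352 at P21, 285, 299 and 327 at P56 and 311 and 295 at 2 years, all above every P4 library, and the groups from P13 to 2 years overlapped. *Slc6a5* rose 7.78-fold from E13.5 to P4 (log2 fold change 2.96, standard error 0.42, adjusted p = 8.4e-06), 2.52-fold from P4 to P13 (log2 fold change 1.34, standard error 0.32, adjusted p = 0.0042) and 2.78-fold from P4 to P56 (log2 fold change 1.47, standard error 0.30, adjusted p = 0.00082). These comparisons share the P4 libraries, and the step from P4 to P13 no longer passed without P4 replicate 1 (1.48), 2 (1.43) or 3 (1.12) or P13 replicate 1 (1.04), nor that from P4 to P56 without P4 replicate 3 (1.26). Relative to *Chat* TPM, *Slc6a5* was at 9.92%, 8.85% and 7.84% at P4 and 16.1% and 10.2% at P13, a range that starts just above the highest P4 value. From E13.5 to P56 the rise was 21.6-fold (log2 fold change 4.43, standard error 0.42, adjusted p = 4e-08), the largest in vivo rise among the 9 genes over that interval.

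The 10 culture libraries held 2 counts of *Slc6a5* at DIV0, 2 at DIV7, 3 at DIV28 and 0 with TTX. Against 647 counts in the 3 P21 libraries, the 3 counts at DIV28 were 535-fold lower after scaling, with a counting interval of 182 to 2599, and the difference passed the limits (adjusted p = 1.3e-10). An ATAC peak within 1000 bp of an annotated *Slc6a5* start was present in all 14 in vivo libraries and both DIV0 libraries, and in none of the 6 libraries at DIV7, DIV28 or DIV28 with TTX.

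The 250 bases before the first RefSeq start of *Slc6a5* (chr7:49910049-49910298, GRCm38.p6, plus strand) are shown because peaks near this start and the transcript were both absent in later culture. They hold none of the 4 motifs and so carry no capitals.
Slc6a5: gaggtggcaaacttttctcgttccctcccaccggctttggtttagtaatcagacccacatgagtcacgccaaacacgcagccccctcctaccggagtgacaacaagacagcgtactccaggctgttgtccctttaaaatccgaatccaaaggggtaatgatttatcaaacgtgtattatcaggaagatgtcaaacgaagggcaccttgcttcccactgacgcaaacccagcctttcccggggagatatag

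Within this narrower stretch a peak was found in 1 library each at P13, P56, 2 years and DIV0 and in both at P21, and in none at E10.5, E13.5 or P4, or at DIV7 or later in culture.

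*Slc6a9* (ENSMUSG00000028542.17, chr4:117834506-117875198, plus strand), the other glycine transporter of the list, was called in no in vivo comparison and had group means between 25.8 at E13.5 and 49.7 normalised counts at P4. In the order of its 11 group means every neighbouring pair of groups overlapped. In culture it had 30.1 and 36.7 at DIV0, 60.0 and 144 at DIV7, 127, 108 and 124 at DIV28 and 92.8, 32.6 and 13.9 with TTX. All 3 DIV28 libraries lay above every in vivo library, and *Slc6a9* was 3.10-fold higher at DIV28 than at P21 (log2 fold change 1.63, standard error 0.32, adjusted p = 0.00019). *Slc6a5* and *Slc6a9* thus differed from P21 in opposite directions at DIV28. Since *Slc6a9* is also a gene of astrocytes, the 8 astrocyte markers are given beside it, and they summed to 758 to 1060.4 at DIV28 and 1530.2 to 2051 at P21. The part of astrocyte RNA in the level of *Slc6a9* was not tested.

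*Slc17a6* (ENSMUSG00000030500.6, chr7:51622006-51671119, plus strand), the main vesicular glutamate transporter of the spinal cord, was highest at P4, with normalised counts of 3.82, 0 and 7.63 at E10.5, 94.2 and 59.2 at E13.5 and 257, 368 and 266 at P4. They were 306 and 185 at P13, 145, 143 and 169.9 at P21, 133, 149 and 187 at P56 and 168 and 157 at 2 years. The E10.5, E13.5 and P4 libraries did not overlap, and all libraries from P21 on lay below those of P4. *Slc17a6* rose 17.7-fold from E10.5 to E13.5 (log2 fold change 4.15, standard error 0.48, adjusted p = 7.5e-07), a step that no longer passed when only the 5 libraries of these ages were fitted (4.26), and 4.37-fold from E13.5 to P4 (log2 fold change 2.13, standard error 0.35, adjusted p = 4e-05). From P4 to P56 the log2 fold change was -0.93 (adjusted p = 0.018), which passed neither limit. Relative to *Chat* TPM, *Slc17a6* was at 49.3%, 57.6% and 45.2% at P4 and 11.7%, 15.1% and 15.6% at P21, which did not overlap. The 14 excitatory interneuron markers summed to 250.1 to 336 at E13.5, 112 to 136 at P4 and 22.1 to 49.0 at P21, and their part in the result was not tested.

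In culture *Slc17a6* had 2.61 and 0 normalised counts at DIV0, 1.88 and 0 at DIV7, 59.1, 87.9 and 48.1 at DIV28 and 54.1, 34.2 and 69.4 with TTX. The groups split between DIV7 and DIV28, and the TTX and DIV28 libraries overlapped. The ratio of DIV28 to DIV7 was 96.1 with a counting interval of 17.2 to 3806, from 1 count at DIV7 and 389 at DIV28 (adjusted p = 0.0022), and the call was lost without DIV7 replicate 2, where the fitted log2 fold change was 5.06. At DIV28 the excitatory interneuron markers summed to 173 to 354, of which *Shox2* had a mean of 165, against 9.17 to 31.4 at DIV0, where 9 of the 14 were at 0. Their part in the level of *Slc17a6* was not tested.

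*Slc17a7* (ENSMUSG00000070570.5, chr7:45163949-45176142, plus strand), the glutamate transporter of cortical projection neurons, had 32.1, 12.4 and 20.6 normalised counts at E10.5, 5.54 and 2.57 at E13.5 and at most 4.64 in any later in vivo library. Relative to *Chat* TPM it stood at 17.6% ± 8.67 (SD, n = 3) at E10.5. In culture it had no count at DIV0 and reached 20.9, 19.7 and 2.92 at DIV28, with replicate 3 well below the others, and 6.44, 2.17 and 10.1 with TTX. *Slc17a8* (ENSMUSG00000019935.16, chr10:89574020-89621253, minus strand), a glutamate transporter of few neurons in the brain, had at most 9.24 normalised counts in any library. Both genes were under the CPM limit in every group of libraries and were not tested.

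*Th* (ENSMUSG00000000214.11, chr7:142892752-142931128, minus strand) was abundant at the start of both series and nearly gone later. Normalised counts were 207, 95.4 and 302 at E10.5 and 15.7 and 7.72 at E13.5, and between 0 and 4.03 in the 13 in vivo libraries from P4 on. In culture they were 272 and 199 at DIV0, and no count was found in the 8 libraries of DIV7, DIV28 and DIV28 with TTX, where 3 counts over the group would be 2.28 normalised counts at DIV7 and 0.563 at DIV28. The DIV0 and E10.5 libraries overlapped, and both groups lay above all others. From E10.5 to E13.5, *Th* was lower by 20.4-fold (log2 fold change -4.35, standard error 0.52, adjusted p = 9.5e-07). From the counts summed over each group, against a floor of 3 counts, it was at least 104-fold lower at DIV7 than at DIV0 (adjusted p = 0.00069) and at least 423-fold lower at DIV28 (adjusted p = 8.4e-05). Between E13.5 and DIV0, *Th* was 20.8-fold higher at DIV0 (log2 fold change 4.38, standard error 0.55, adjusted p = 1.4e-06), where *Chat* was 11.2-fold higher (log2 fold change 3.49, standard error 0.31, adjusted p = 7.2e-09), and relative to *Chat* TPM the values were 7.98% and 8.85% at E13.5 and 16.4% and 16.7% at DIV0.

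The 7 markers of catecholaminergic neurons were unevenly detected where *Th* was high, summing to 66.4 to 87.1 normalised counts at E10.5, 55.4 to 70.4 at E13.5 and 185 to 465 at DIV0, and to 11.3 to 20.4 at DIV7. At E10.5, *Slc6a2* and *Slc6a3*, the noradrenaline and dopamine transporters, were at 0 in all 3 libraries, and *Dbh*, which makes noradrenaline, was at 1.53 to 4.15 normalised counts. *Slc18a2*, which loads monoamines into vesicles, was at 40.8 to 64.8 at E10.5 and 169.7 to 395 at DIV0, and at most 2.80 at P21. At DIV0 *Slc6a2* and *Slc6a3* were also at 0. The part of such neurons in the level of *Th* was not tested.

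The 250 bases before the RefSeq start of *Th* (chr7:142899996-142900245, GRCm38.p6, minus strand) are shown because a peak was present there in the groups with the transcript and in 1 further library, and because they hold a full TGACGTCA, 37 bases before the start and in capitals together with a GC box motif 214 bases before it.
Th: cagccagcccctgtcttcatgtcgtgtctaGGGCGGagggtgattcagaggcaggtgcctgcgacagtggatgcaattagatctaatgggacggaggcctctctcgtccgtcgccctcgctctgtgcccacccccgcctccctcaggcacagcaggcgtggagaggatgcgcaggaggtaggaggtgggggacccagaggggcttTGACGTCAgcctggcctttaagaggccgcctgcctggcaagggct

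Peaks within 1000 bp of an annotated *Th* start were found in both libraries at E10.5, E13.5 and DIV0 and in DIV7 replicate 1, 7 of 22 libraries, and in none from P4 to 2 years or at DIV28 with or without TTX. The fold enrichment was 2.59 and 4.74 at E10.5, 3.59 and 6.35 at E13.5 and 7.95 and 8.93 at DIV0. In the printed stretch itself a peak was present in 1 library at E10.5, both at E13.5, both at DIV0 and 1 at DIV7.

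**Figure D2:**
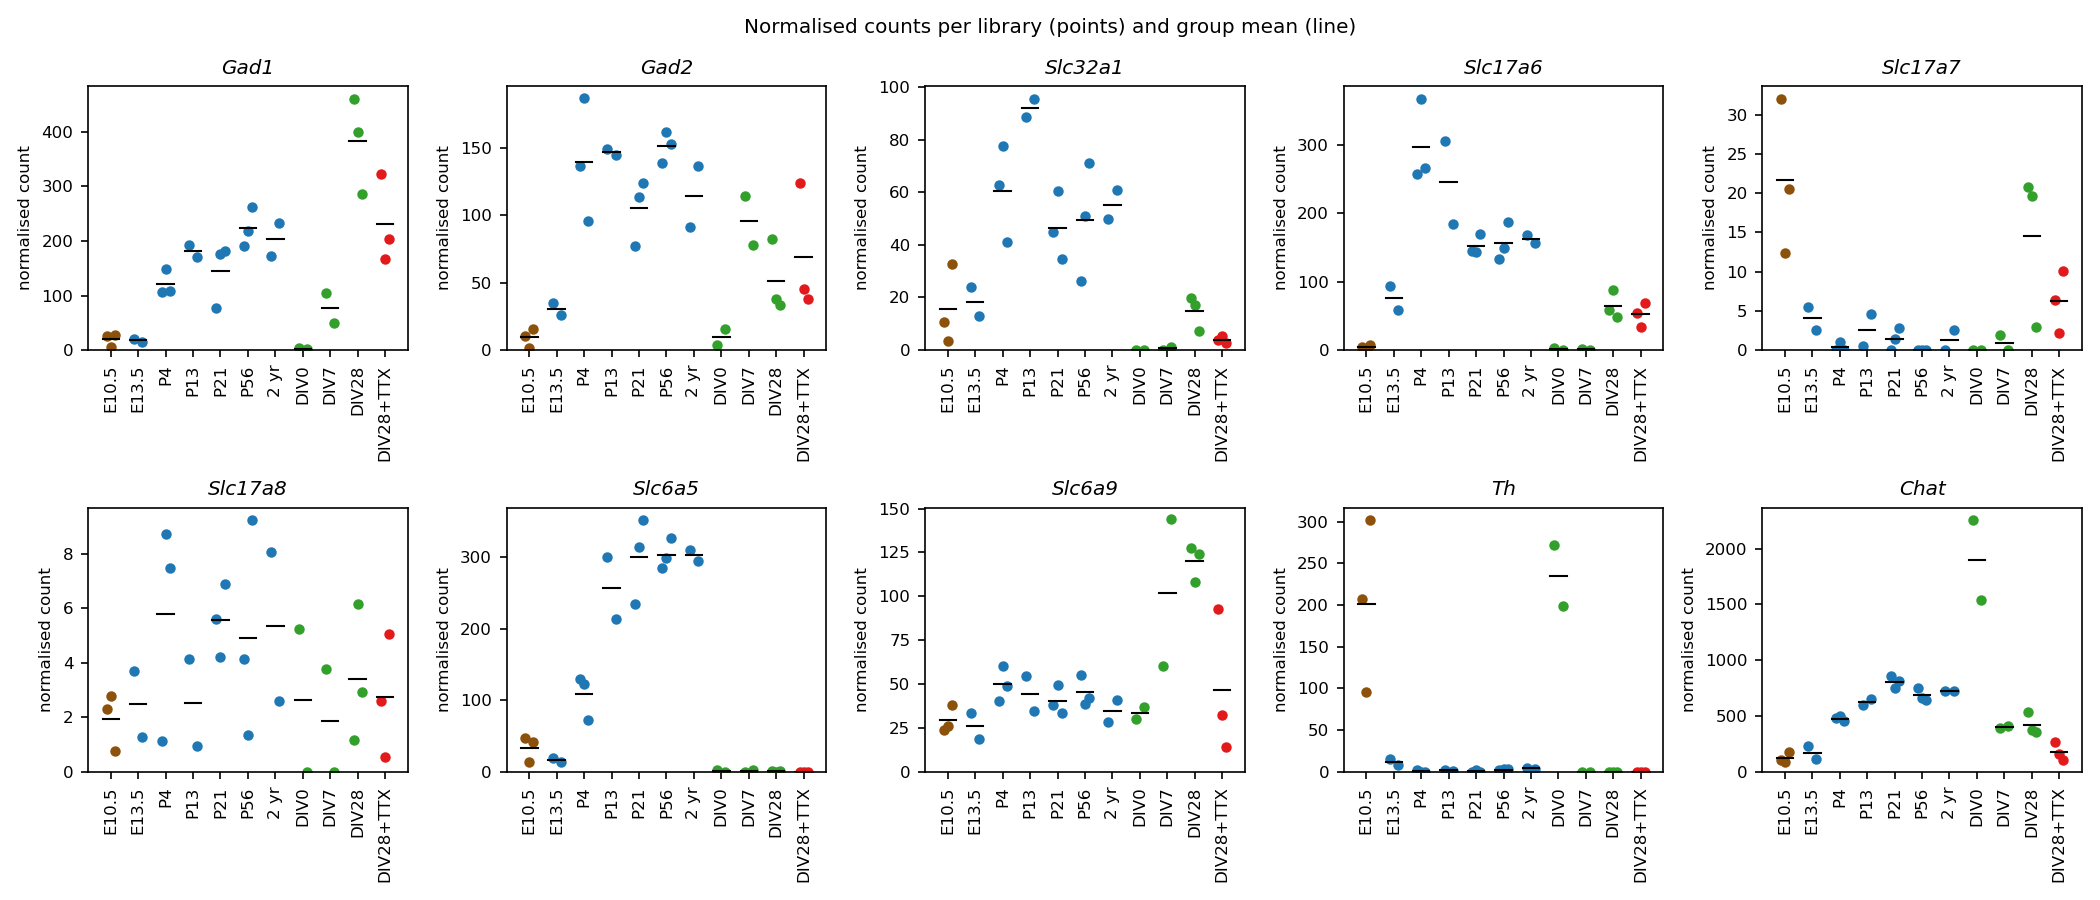
Normalised counts of the 9 genes and *Chat* (y axis, a separate linear scale per gene) in each RNA library (points) by group (x axis), with the group mean as a line, and brown marks whole cells, blue in vivo nuclei, green cultured nuclei and red culture with TTX. *Slc6a5* rose with age in vivo and lay at or below 2.61 in culture, while *Gad1* was highest at DIV28 and *Th* at E10.5 and DIV0.

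Counting the 9 genes by comparison, 7 had enough counts to be tested in vivo and 5 in culture. In vivo, *Th* reached the CPM limit only at E10.5, so that its call from E10.5 to E13.5 rests partly on that filter. From E10.5 to E13.5, 2 of 7 were called, *Slc17a6* higher and *Th* lower, beside 44.1% of all 15030 genes tested, and from E13.5 to P4, 4 of 7 were called, all higher, beside 42.7% in either direction and 23.8% higher. The step from E10.5 to E13.5 is also one from whole cells to nuclei and from the HB9-GFP to the Chat-Cre line, which cannot be told apart from age. The median log2 change of the 7 was 2.13 from E13.5 to P4, against 0.12 over all genes, and that of *Chat* was 1.67 (adjusted p = 3.8e-05). From P4 to P13, 1 of 7 was called, *Slc6a5*, higher (background 13.3% in either direction and 5.8% higher), and none of 7 was called from P13 to P21 (background 7.3%), from P21 to P56 (background 0.173%) or from P56 to 2 years (background 0.685%). At an unadjusted p under 0.05, the count over these 3 steps was 1 for P13 to P21, *Slc17a6* (log2 fold change -0.78), and 0 for the other steps. With DESeq2 no gene was called in them either. Over longer spans, 1 of 7 was called from P4 to P56, higher (background 17.8% in either direction and 6.01% higher), and 3 of 7 from E13.5 to P56, all higher (background 56.4% in either direction and 29.7% higher).

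With median-of-ratios in place of TMM factors, the median over all genes moved by 0.11 on the log2 scale from E10.5 to E13.5 and by -0.11 from E13.5 to P4, and every call of the 9 genes was the same.

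The rise of *Gad1*, *Gad2*, *Slc17a6* and *Slc6a5* between E13.5 and P4 came with a rise of the receptors that answer to inhibitory transmitters. Of 11 tested GABA-A receptor subunits, 10 rose and none fell (median log2 change 2.32), led by *Gabrg3* (4.37), *Gabrg1* (3.35) and *Gabrb1* (3.14). Of 5 genes of the glycine receptor and its anchor, 4 rose, led by the ligand-binding subunit *Glra1* (4.44) and the shared subunit *Glrb* (3.96). Among GABA transporters and breakdown enzymes, 3 of 4 rose, led by the astrocytic uptake transporter *Slc6a11* (4.39), while of 5 genes that make or cleave glycine none rose and *Shmt1* (-2.91), *Gcsh* (-1.72) and *Shmt2* (-1.66) fell. The 8 astrocyte markers summed to a mean of 1229 at E13.5 and 3601 at P4, and their part in the rise of *Slc6a11* was not tested. In the cholinergic set, 3 of 4 rose, among them the choline transporter *Slc5a7* (2.26), and of 9 glutamate synthesis and uptake genes 4 rose and 1 fell. Of 5 tested monoamine genes, *Maoa*, a breakdown enzyme, fell (-1.12) and none rose. The endothelial marker sum was also lower at P4, as given above, and its part in the fall of *Maoa* was not tested. The background for these counts is the 42.7% of all genes called, and the lists were drawn up with earlier results of these data known.

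At the first step, from E10.5 to E13.5, where 44.1% of all genes were called, 9 of the 11 GABA-A subunits rose, and *Glra1*, the adult-type glycine receptor subunit, fell by 3.91 on the log2 scale before it rose again at P4. *Slc18a2* and *Th* fell together at this step (log2 fold change -3.52 for *Slc18a2*), while *Gch1*, which makes the cofactor of *Th*, rose (4.29) and *Maoa* rose (2.39). The mean endothelial marker sum was 11.6 at E10.5 and 17690 at E13.5, and the mean erythroid sum was 1.78 and 17184. The part of these cells in the rise of *Gch1* and *Maoa* was not tested. From P4 to P56, where 17.8% of all genes were called, *Glra1* rose (1.16) and *Glra2*, the embryonic subunit, fell (-3.49), and the astrocytic transporter *Slc6a11* fell (-2.81). The mean astrocyte marker sum was 3601 at P4 and 1416 at P56, and its part in the fall of *Slc6a11* was not tested.

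**Figure D3:**
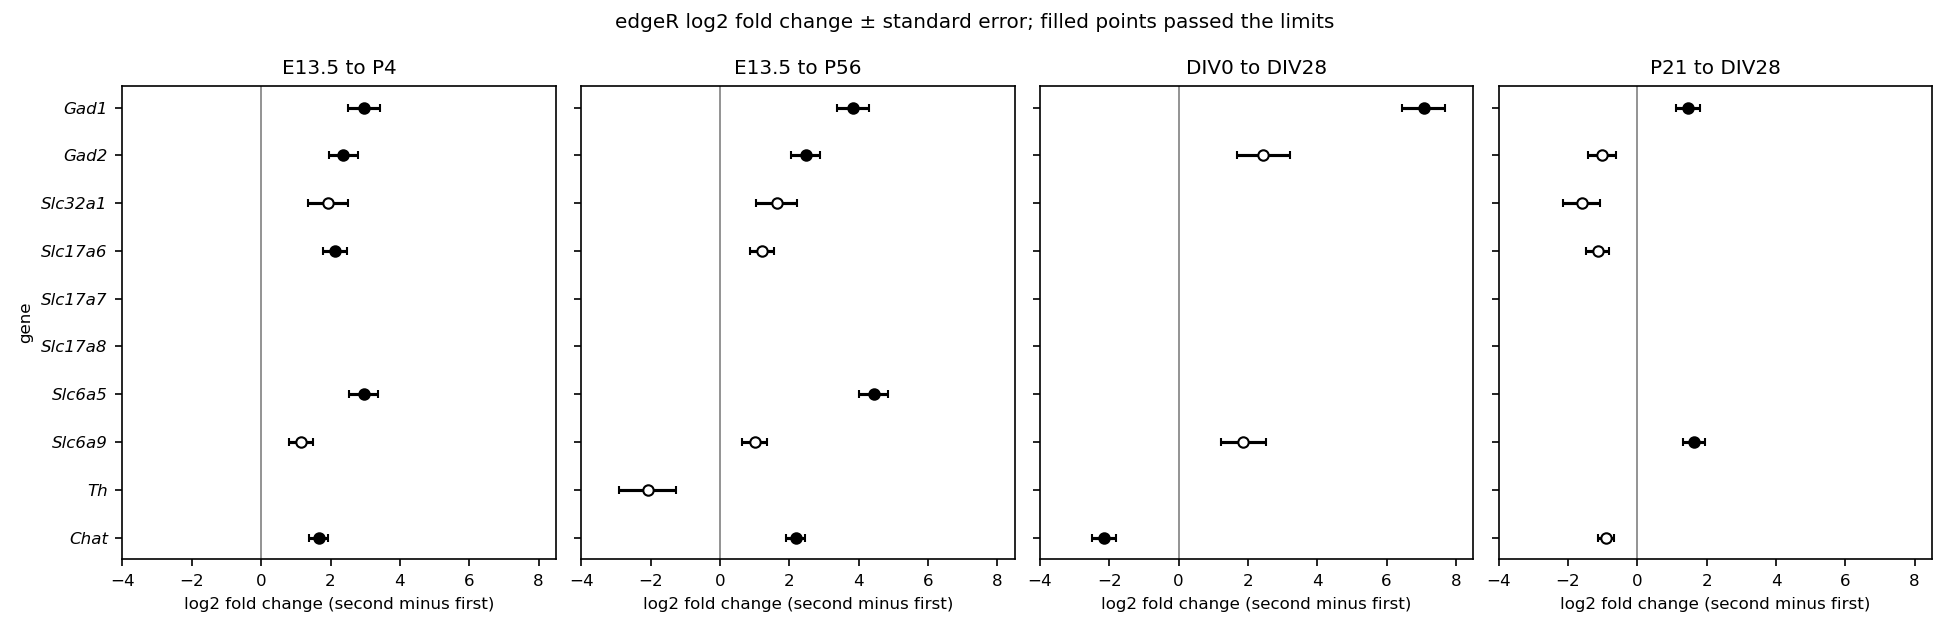
Log2 fold change (x axis, second minus first group) with its standard error for the 9 genes and *Chat* (y axis) in 4 comparisons, from edgeR, with filled points for calls past the limits, and genes not tested, or with 3 or fewer counts in a group, have no point. *Gad1* lies to the right of 0 in all 4 panels, at 2.97, 3.85, 7.07 and 1.46.

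In culture, *Chat* fell while *Gad1* rose. *Chat* had 2259.5 and 1541 normalised counts at DIV0, 388 and 407 at DIV7 and 532, 370.2 and 357 at DIV28, a log2 fold change of -2.25 from DIV0 to DIV7 (adjusted p = 0.0023), and did not overlap between DIV0 and the later groups. This call was lost without DIV0 replicate 1 (-1.96), DIV7 replicate 1 (-2.24) or DIV7 replicate 2 (-2.30). From DIV0 to DIV7, 2 of 5 tested genes were called, *Gad1* higher and *Th* lower, beside 11.2% of 12890 genes. In the culture fit, *Th* reached the CPM limit only at DIV0, and *Slc17a6* only at DIV28, with and without TTX. The counts of called genes in this paragraph thus rest partly on that filter, and genes low throughout culture are not among those tested. From DIV7 to DIV28, 2 of 4 tested genes were called, *Gad1* and *Slc17a6*, both higher, beside 7.7% in either direction and 3.62% higher. From DIV0 to DIV28, 3 of 5 were called (background 19%), with *Gad1* 134-fold higher (log2 fold change 7.07, standard error 0.63, adjusted p = 9.9e-06). *Chat* was 4.44-fold lower over that span (adjusted p = 0.00061), a call lost without DIV0 replicate 1 (-1.86), and *Gad1* relative to *Chat* TPM went from 0.110% and 0.219% to 79.0%, 81.7% and 64.5%. That ratio thus holds the fall of *Chat* as well as the rise of *Gad1*. Of 4 tested cholinergic genes, *Chat* was the only 1 called over the span (median log2 change -0.27). Mean normalised counts of *Slc5a7* were 323 at DIV0 and 694 at DIV28, and those of *Slc18a3* 934 and 441.

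The receptor genes moved as well, with 6 of 9 tested GABA-A subunits higher at DIV7 than at DIV0 and none lower, beside 11.2% of all genes called. *Gabrg3* had no count at DIV0 and 855 at DIV7, and *Gabrb1* had 1 and 403 counts. The glycine receptor gene *Glra3* had no count at DIV0, 781 at DIV7 and 1438 at DIV28, and *Glrb* rose from DIV0 to DIV28 (log2 fold change 3.36). Among monoamine genes, *Slc18a2* went from 413 counts at DIV0 to 4 at DIV28 and *Ddc*, the enzyme after *Th*, fell (-5.44), while *Slc6a4*, the serotonin transporter, went from 1 to 653 counts.

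With TTX none of the 4 genes tested, *Gad1*, *Gad2*, *Slc17a6* and *Slc6a9*, was called (background 0.683%). At an unadjusted p under 0.05 there were 2, *Gad1* (log2 fold change -0.75, standard error 0.33, adjusted p = 0.6) and *Slc6a9* (log2 fold change -1.40, standard error 0.54, adjusted p = 0.5), both with lower fitted values, and with DESeq2 none was called. *Slc6a9* passed the limits without TTX replicate 1 (-2.31), which at 92.8 normalised counts lay far above the 32.6 and 13.9 of the others. *Chat* had 267, 159 and 103 normalised counts with TTX, all below the DIV28 libraries, with a log2 fold change of -1.27 (adjusted p = 0.19) that did not pass the p limit and did so with the pair as a block (-1.34), in DESeq2 (-1.26) and without TTX replicate 1 (-1.67). With the block no call of the 9 genes changed. Relative to *Chat* TPM, *Gad1* was at 89.8%, 94.0% and 130.0% with TTX, each above the 79.0%, 81.7% and 64.5% at DIV28, although its own counts were lower in the mean. For *Gad2* the values were 17.8%, 12.8% and 11.9% with TTX, all above the 6.79%, 4.22% and 3.58% at DIV28, and for *Slc6a9* they were 46.7%, 17.4% and 10.7%, on both sides of the 21.1%, 23.5% and 24.4% at DIV28. Of the pathway lists, the only called gene was *Glra1*, which fell (log2 fold change -2.33, standard error 0.39, adjusted p = 0.043).

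Set against P21 nuclei, DIV28 nuclei had more *Gad1* and *Slc6a9* and almost no *Slc6a5*, 3 calls among 7 tested genes beside 26.3% of 15521. *Gad1* was 2.76-fold higher at DIV28 (log2 fold change 1.46, standard error 0.34, adjusted p = 0.00098), with all 3 libraries above the P21 ones, a call lost without P21 replicate 1 (1.16) or DIV28 replicate 1 (1.31). *Slc32a1* (-1.60, adjusted p = 0.016), *Slc17a6* (-1.15, adjusted p = 0.0069) and *Gad2* (-1.02, adjusted p = 0.037) had lower fitted values at DIV28 and did not pass the p limit. *Slc17a6* passed it in DESeq2 (-1.20) and without DIV28 replicate 2 (-1.47). *Chat* had a log2 fold change of -0.89 (adjusted p = 0.0029), under the 2-fold limit. Of the GABA handling genes, 3 of 4 were lower at DIV28, among them the uptake transporter *Slc6a11* (-5.61) and the breakdown enzyme *Abat* (-1.81). Of 11 GABA-A subunits 5 were lower and 1 higher, with *Gabrb2* (-3.32) and *Gabra4* (-2.70) among the lower ones, and of the glycine receptor genes *Glra1* was lower (-3.32) and *Glra3* higher (2.43).

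Between E13.5 and DIV0 nuclei, 3 of 7 genes were called (background 39.4%), *Th* higher and *Slc17a6* and *Slc32a1* lower at DIV0. *Slc17a6* was 49.9-fold lower at DIV0 with a counting interval of 13.7 to 414, and *Slc32a1*, with 56 counts at E13.5 and none at DIV0, at least 7.75-fold lower. The call of *Slc32a1* was lost without E13.5 replicate 1, DIV0 replicate 1 or DIV0 replicate 2, where the fitted log2 fold changes, which depend on the count added to groups at 0, were -6.83, -7.36 and -7.36. The 12 inhibitory and 14 excitatory interneuron markers summed to 158 to 295 and 9.17 to 31.4 at DIV0, against 634 to 698 and 250.1 to 336 at E13.5, with 4 and 9 of them at 0 at DIV0. Their part in the result was not tested.

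The change in culture from DIV0 to DIV28 was set against that in tissue from E13.5 to P21 with an interaction term. For *Gad1* the log2 change in culture exceeded that in tissue by 4.05 (standard error 0.90, adjusted p = 0.0005) and for *Slc17a6* by 4.52 (standard error 0.95, adjusted p = 0.00031), the 2 of 7 genes called, beside 41.7% of all genes. Both differences start from few counts at DIV0, and the call was lost for *Gad1* without DIV0 replicate 1 (4.89) or 2 (3.58) and for *Slc17a6* without DIV0 replicate 2 (3.67). *Chat* differed the other way (log2 fold change -4.38, standard error 0.38, adjusted p = 4.5e-09).

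At the start sites, *Gad1*, *Gad2* and *Slc6a9* had an ATAC peak within 1000 bp of an annotated start in all 22 libraries, *Slc17a6* in 21, *Slc32a1* and *Slc6a5* in 16, *Slc17a8* in 12, *Slc17a7* in 8 and *Th* in 7. Between 65.7% and 73.3% of the 21951 protein-coding genes had such a peak in a library. The peaks were called per library with a lax limit, and with a −log10 q of at least 2 *Th* had a peak in 5 libraries, *Slc6a5* in 15 and *Slc32a1* in 15. *Slc17a8* had the highest enrichment of the glutamate transporters at DIV28, 12.1 and 18.5, and 9.06 and 17.1 with TTX, at chr10:89599318-89599806 in DIV28 replicate 1 and chr10:89599188-89600046 in replicate 2 (mm10), inside the gene and next to its second RefSeq start. The same gene had 24 counts in the 3 DIV28 RNA libraries together and no peak in either library at E10.5, P56 or 2 years. *Slc17a7* had a peak of 6.95 and 7.42 in enrichment at DIV0, where no count of it was found, and none at DIV7 or DIV28. This DIV0 peak lay away from the start itself, as 0 of 2 DIV0 libraries had a peak within 250 bp of an annotated *Slc17a7* start. *Gad1* had an enrichment of 2.35 and 4.10 at E10.5, 7.38 and 10.4 at E13.5 and 4.65 and 5.55 at P56. In culture it was 8.08 and 9.19 at DIV0 and 4.96 and 6.94 at DIV28. *Slc6a9*, the gene with the highest enrichment of the 9 at E13.5 (14.5 and 18.9), had 33.2 and 18.4 normalised counts at that age. Peak height was not tested between groups, as there are 2 libraries in each.

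**Figure D4:**
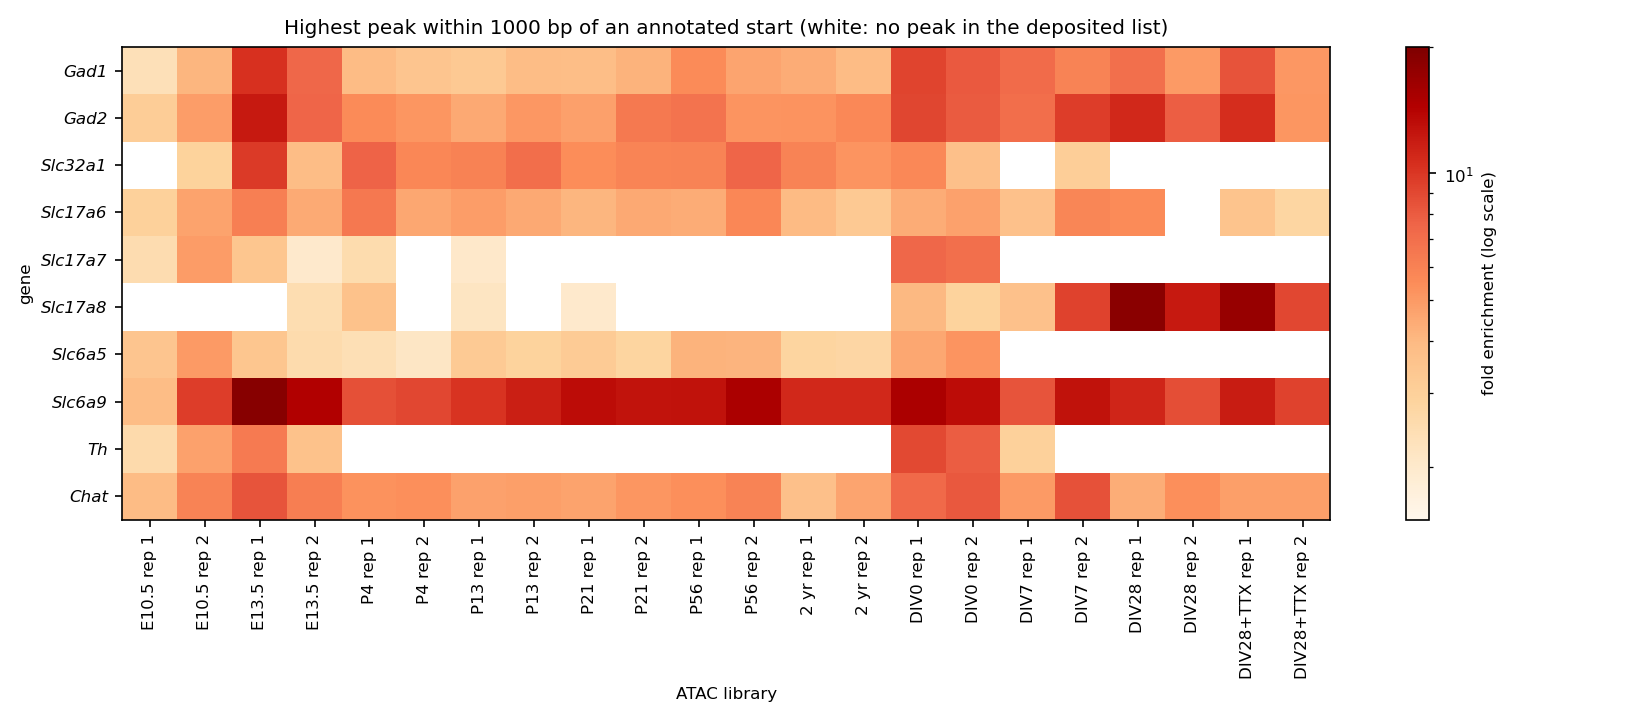
Fold enrichment (colour, log scale) of the highest ATAC peak within 1000 bp of an annotated start of each gene (rows) in each of the 22 ATAC libraries (columns), white where no peak was listed. *Slc6a5* and *Slc32a1* are white in the 4 libraries of DIV28 and DIV28 with TTX, and *Th* from P4 to 2 years and at DIV28.

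Over the 18 in vivo libraries, the gene whose log2 CPM followed *Gad1* most closely was *Hcn2* (r = 0.964), a channel subunit of the pacemaker current. The nearest were *Gabbr2* (r = 0.982), a GABA-B receptor subunit, for *Gad2*, *Prkar1b* (r = 0.949) for *Slc32a1* and *Gria1* (r = 0.992), an AMPA receptor subunit, for *Slc17a6*. They were *Dpyd* (r = 0.982) for *Slc6a5*, *Rims4* (r = 0.877) for *Slc6a9* and *Lypla2* (r = 0.977) for *Th*. The next nearest were *Arhgef4* and *Ndrg4* for *Gad1*, *Enpp5* and *Myrip* for *Gad2*, *Lonrf2* and *Fam168a* for *Slc32a1*, *Luzp2* and *Brinp1* for *Slc17a6*, *Acss2* and *Kcnab2* for *Slc6a5*, *Lingo3* and *Asic2* for *Slc6a9* and *Nhlh1* and *Serping1* for *Th*. These are the highest of 15030 correlations each, over libraries that share their age groups and depth, and are given as a description.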

How the data were processed

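Per the labels and the study's methods, the authors trimmed reads with Trim Galore and cutadapt 0.6.2 and aligned them to mm10 with STAR 2.5.2b, and the deposited expected counts and TPM per gene (GENCODE vM21) are RSEM 1.3.0 estimates from stranded total RNA libraries. The authors aligned ATAC-seq reads with BWA 0.7.1.7, sorted them with SAMtools 1.7.2 and called peaks per library with MACS2 2.2.7.1, and the deposited peaks carry a fold enrichment and a −log10 q. The lowest −log10 q of a listed peak was 0.110.

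Expected counts were rounded and tested with edgeR 4.0.16 (R 4.3.3) by its quasi-likelihood test with TMM factors and Benjamini-Hochberg adjustment, on genes that reached 5 CPM throughout at least 1 group, in 3 fits, over the 18 in vivo libraries, the 10 culture libraries and the 25 libraries without TTX. Fold changes are the second group over the first. DESeq2 1.42.0, other scaling, no filter, an adjusted p limit of 0.05, compared groups alone, a replicate block and leaving out each library were the alternatives. Normalised counts were scaled over the 12835 genes with a count in every library. The floor for a group at 0 was 3 counts over the group, and counting intervals are exact at 95% and cover counting error only. Peaks were overlapped with bedtools 2.31.1. Promoter sequences are from RefSeq (GRCm38.p6), whose table held all 9 genes. Figures and summaries used Python 3.11.15 with pandas 2.3.3, SciPy 1.17.1 and matplotlib 3.10.9. The scripts were tested on simulated data.

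The genes and lists were chosen with earlier results of these data known. The genes named from the pathway lists are the 3 with the largest change among those called in a comparison, with others chosen after their values were seen. Some genes of the lists are counted but their own values are not reported here. Where the labels do not say that replicates came from separate pools or cultures, p-values measure only the spread between these libraries, which may be technical. DIV28 libraries with and without TTX are paired by number in the study's sample table, and same-numbered libraries deviated together from their group means (r = 0.686, 0.568 and 0.740). The lowest chi-square per degree of freedom between replicates was 2.22, above the sampling noise of one library given under more than 1 name.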

Additional observations from a re-analysis of the deposited data

Results flagged for a closer look

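The log2 change in culture from DIV0 to DIV28 was set against the log2 change in tissue from E13.5 to P21, and the difference itself was tested with an interaction term in edgeR. It passed the limits for 2 of the 7 tested genes, beside 41.7% of all 15521 genes tested, and for *Chat*. The change in culture exceeded that in tissue by 4.52 for *Slc17a6* and by 4.05 for *Gad1*. For *Chat* the difference was -4.38. The calls of *Gad1* and *Slc17a6* were lost when a DIV0 library was left out, as given with the result, and the groups compared differ in source and starting age as well as in time.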

How the results depend on the processing

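The 63 log2 fold changes of the 9 genes and *Chat* with an unadjusted p under 0.05 were recomputed under each alternative that applies to them, and none reversed. Leaving out 1 library left the status, called or not called, unchanged in 326 of the fits of single genes, lost a call in 20 and made a new one in 6. The other alternatives left the status unchanged in 313, lost a call in 3 and made a new one in 53. The unchanged fits include changes that were called in neither fit, so they are not a count of calls kept. The numbers of the 9 genes called moved by over 1.5 times as follows, and the cause was not tested. The shares of all genes called under these alternatives are not reported here. The counts therefore have no background beside them and say nothing about the 9 genes against other genes. Without the filter on low counts, 4 were called from E10.5 to E13.5, 5 from E13.5 to P56, 6 from DIV0 to DIV28, 1 (*Slc6a9*) with TTX, 7 from P21 to DIV28, 6 from E13.5 to DIV0 and 4 in the interaction, where more genes are tested. With an adjusted p under 0.05 as the limit, the counts were 4 from E10.5 to E13.5, 7 from E13.5 to P4, 7 from E13.5 to P56, 5 from DIV0 to DIV28, 6 from P21 to DIV28, 6 from E13.5 to DIV0 and 6 in the interaction. With the compared groups alone they were 1 from E10.5 to E13.5 and 1 (*Slc32a1*) from P13 to P21, and with DESeq2 4 in the interaction. Leaving out 1 library gave 2 to 3 calls from E10.5 to E13.5, 3 to 4 from E13.5 to P4, 0 to 1 from P4 to P13, 0 to 1 from P4 to P56, 0 to 2 from DIV7 to DIV28, 0 to 1 with TTX, 2 to 4 from P21 to DIV28, 2 to 3 from E13.5 to DIV0 and 0 to 2 in the interaction. With the replicate number as a block, 0 genes were called from P4 to P13 and *Slc32a1* was lost from E13.5 to DIV0. Outside DIV28 and TTX the numbers only name samples (r from -0.0883 to 0.226), and the block changed no call with TTX. Peaks of the 9 genes numbered 146 within 1000 bp, 132 within 250 bp, 132 at a −log10 q of at least 2 and 112 in the 250 bases before a RefSeq start, the last chosen after seeing the data. *Slc17a7* and *Slc17a8* in every fit, and *Slc32a1* and *Slc6a5* in the culture fit, were under the CPM limit and were not tested there.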
